A study of Mus musculus with 6 samples.

Results

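Elastic fibres give a tissue recoil after it has been stretched, and the uterine wall is stretched as pregnancy advances. Each fibre has a core of cross-linked elastin laid down on a mantle of microfibrils, which are thin filaments of fibrillin with small microfibril-associated glycoproteins bound to them. The latent TGF-beta binding proteins (LTBPs) are large relatives of the fibrillins. They tether the inactive form of the growth factor TGF-beta to this matrix or help elastic fibres to assemble, so the same structures store both recoil and a signal. In the uterus, smooth muscle cells and fibroblasts make these proteins.

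The 10 genes described here are elastin (Eln), fibrillin-1 (Fbn1), the 4 LTBP genes (Ltbp1, Ltbp2, Ltbp3, Ltbp4), the microfibril-associated genes Mfap2, Mfap4 and Mfap5, and Adamtsl2, whose secreted product binds fibrillin and LTBP1. They were taken by gene symbol from a table of 24964 symbols, and all 10 were found and had a mean of at least 1 FPKM. They were chosen by family, with their FPKM in the 3 deficient-labelled and the 3 control columns already seen, so every difference between the groups given for them is a description without a test and supports nothing by itself.

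RNA came from mouse uterine tissue around the implanted embryos on gestation day 13. Of the 6 libraries, 3 carry the label of a myometrial knockout of PGR, the progesterone receptor, and 3 are labelled control. The question is which transcripts differ in mid-pregnancy when the myometrium, the muscle layer, lacks the receptor for progesterone. The sources used here name no strain, age or driver of the knockout and do not say that each library is a separate animal, so p-values measure the spread between these libraries only, which may be technical. Levels are FPKM, the fragments on a gene scaled to its length and to library size. Differences are labelled deficient minus control in log2(FPKM + 1), a scale that understates changes of low genes.

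The level of Pgr, the gene for the receptor, does not bear out the label. It stood at 11.3, 12.4 and 7.73 FPKM in those libraries and at 9.72, 8.33 and 12.1 FPKM in controls. The groups overlapped, with means of 10.5 ± 2.44 FPKM in the deficient-labelled libraries and 10.04 ± 1.9 FPKM in controls (SD, n = 3 each; exact two-sided permutation test, p = 0.9, where 0.1 is the smallest possible). The sources used here do not name the part of the gene that was removed, and the tissue was not muscle alone, so the level of the whole gene is a weak check. Every direction given here rests on the label.

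Over all 12500 genes tested with limma, 417 passed an adjusted p of 0.05, which is 3.34%, of which 168 (1.34%) were higher and 249 (1.99%) lower where the label is deficient. The split was 218 and 211 after rescaling to an equal sum, 123 and 391 with median-of-ratios scaling, and 131 and 338 with quantile normalization. The 3 values of the groups did not overlap for 29.0% of the genes (20.8% higher and 8.16% lower), and the median difference was 0.06. The summed FPKM lay between 357126 and 372372 in the deficient-labelled libraries and between 372412 and 377091 in controls. Low values corresponded to a library size of between 36500000 and 37000000 reads in every column, which may be a common size used in the formula, so the depth of single libraries is unknown. The third library of each group correlated less with its partners (between 0.971 and 0.983 across genes) than the first with the second (0.991 for deficient, 0.992 for control). Deficient 1 and deficient 2 each correlated at 0.977 with control 3, no less than with deficient 3 (0.976 and 0.971). Deficient 3 itself correlated at 0.964 to 0.969 with the controls. Leaving out deficient 1 or deficient 2 gave 131 or 188 genes called, and leaving out control 1 or control 2 gave 99 or 103.

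Adamtsl2, Ltbp1 and Mfap4 were the members with the largest differences, and their levels were 4.45, 2.63 and 2.3 times as high in the deficient-labelled libraries as in controls. Eln was 1.55 times as high. Fbn1, Ltbp3, Mfap2 and Mfap5 had overlapping groups, while Ltbp2 and Ltbp4 were lower in every library labelled deficient than in any control. In the test across all genes, 3 of the 10 passed and all 3 were higher, beside 1.34% of all genes called higher, and 4 lay wholly above and 2 wholly below the controls, beside 20.8% and 8.16% of all genes. Because the values of this contrast were in view when the genes were listed, nothing is read from these shares. The median difference over the 10 genes was 0.12.

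**Figure D1:**
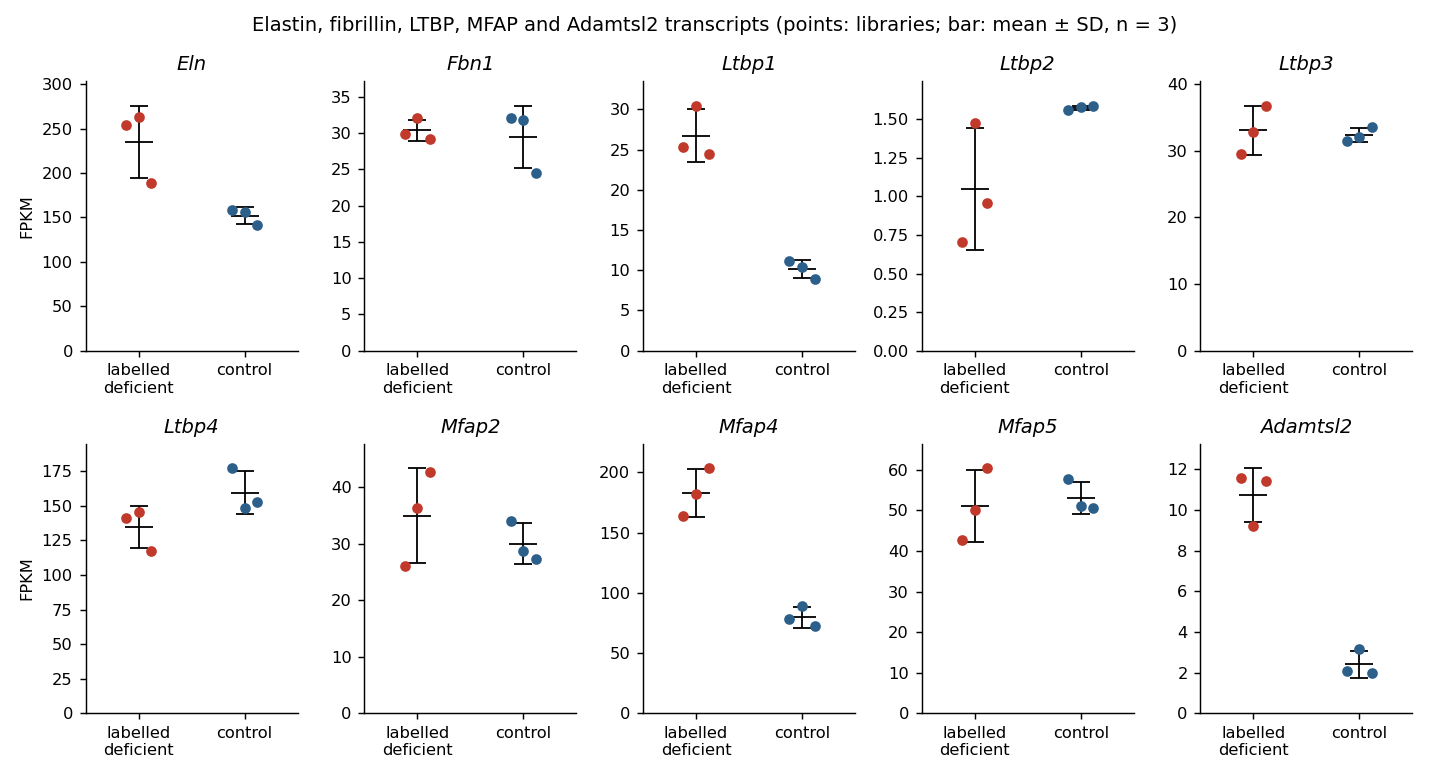
FPKM (vertical axis, linear, from 0) of each of the 10 genes in the 3 deficient-labelled libraries (left, red) and the 3 controls (right, blue), with mean and SD. For Adamtsl2, Ltbp1, Mfap4 and Eln every library labelled deficient lies above every control, and for Ltbp2 and Ltbp4 every one lies below.

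The promoters of the genes with the largest differences are shown so that the sequence next to their start sites can be set beside the values. RefSeq promoter sequences (GRCm38.p6, 250 bases before to 50 bases after a start site) were held for 7 of the 10 genes, 11 promoters in all, and Eln, Mfap4 and Mfap5 had no entry. Ltbp1 has 2 of these promoters, which begin its long and short forms, and the table has a single value for both. Ltbp2 is added as the gene with the largest difference in the other direction. The sequences are written 5′ to 3′ on the gene's strand, and capitals mark a match on either strand to CAGAC, the box bound by SMAD proteins of the TGF-beta pathway, TGTTCT, the core of the site of the progesterone and glucocorticoid receptors, or TATAAA, the TATA box.
Adamtsl2, chr2:27079129-27079428, plus strand: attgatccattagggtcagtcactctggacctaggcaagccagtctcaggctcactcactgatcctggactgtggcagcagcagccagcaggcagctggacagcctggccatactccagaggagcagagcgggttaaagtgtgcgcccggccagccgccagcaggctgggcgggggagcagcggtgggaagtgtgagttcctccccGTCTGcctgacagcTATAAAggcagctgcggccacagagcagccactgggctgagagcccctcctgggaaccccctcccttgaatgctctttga
Ltbp1 long form, chr17:75005279-75005578, plus strand: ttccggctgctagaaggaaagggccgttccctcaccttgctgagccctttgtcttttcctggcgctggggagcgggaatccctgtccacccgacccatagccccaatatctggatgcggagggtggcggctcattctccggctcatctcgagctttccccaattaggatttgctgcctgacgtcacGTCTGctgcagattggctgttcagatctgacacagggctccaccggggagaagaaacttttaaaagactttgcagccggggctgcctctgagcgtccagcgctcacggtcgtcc
Ltbp1 short form, chr17:75178531-75178830, plus strand: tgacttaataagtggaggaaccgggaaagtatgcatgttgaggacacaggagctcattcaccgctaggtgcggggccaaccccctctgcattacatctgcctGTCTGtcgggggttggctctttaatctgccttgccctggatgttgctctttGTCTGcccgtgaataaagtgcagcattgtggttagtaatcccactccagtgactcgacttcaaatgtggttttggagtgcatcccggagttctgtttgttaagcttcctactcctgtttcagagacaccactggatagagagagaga
Ltbp2, chr12:84876442-84876741, minus strand: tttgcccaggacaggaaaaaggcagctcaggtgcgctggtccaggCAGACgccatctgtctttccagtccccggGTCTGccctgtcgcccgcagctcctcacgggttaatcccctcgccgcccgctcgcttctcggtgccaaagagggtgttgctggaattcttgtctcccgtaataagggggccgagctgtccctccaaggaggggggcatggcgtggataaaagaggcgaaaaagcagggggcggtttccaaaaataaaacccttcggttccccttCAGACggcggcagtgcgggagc

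In these sequences, Adamtsl2 held TATAAA beginning 30 bases before the start site and a CAGAC match on the opposite strand at 44 bases before it. The long-form promoter of Ltbp1 held 1 CAGAC match, at 64 bases before the start, the short-form promoter 2 and Ltbp2 3. Over the 11 promoters of the 7 genes, CAGAC occurred in 6, TGTTCT in 1 (a promoter of Mfap2) and TATAAA in 1. Some Ltbp4 promoters share most of their bases and those of Mfap2 overlap in part, so the 11 are not separate sequences. Among 32851 mouse promoters of the same length, CAGAC occurred in 49.6%, TGTTCT in 19.0% and TATAAA in 13.6%. The motifs do not overlap one another in the promoters printed. A match is a string of letters and not a measured binding site.

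Eln encodes tropoelastin, the soluble unit that is cross-linked into the elastic core. Its gene lies on chromosome 5 from 134702593 to 134747323 on the minus strand (GENCODE M21, GRCm38). Eln stood at 254, 263 and 188 FPKM in the deficient-labelled libraries and at 159, 156 and 141 FPKM in controls. All values labelled deficient were higher, with the third library of that group nearest to the controls. The means were 235.1 ± 40.8 FPKM in the deficient-labelled libraries and 152.1 ± 9.36 FPKM in controls (SD, n = 3 each), a difference of 0.61 in log2(FPKM + 1) (SE 0.14, 95% interval from 0.27 to 0.95). Eln was not among the genes called over the whole table, and it was among them without deficient 3, where the difference was 0.76.

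Fbn1 encodes fibrillin-1, the main structural protein of microfibrils, and the gene in which mutations cause Marfan syndrome in humans. Its level was 29.9, 32.0 and 29.2 FPKM in the deficient-labelled libraries and 32.1, 31.8 and 24.4 FPKM in controls. The groups overlapped and the lowest value was that of control 3. The difference was 0.05 (SE 0.11, 95% interval from -0.22 to 0.33), and its sign turned negative with median-of-ratios scaling (-0.017). Set against Fbn1 within the same library, Eln stood at 8.48, 8.23 and 6.46 times Fbn1 in the deficient-labelled libraries and at 4.94, 4.92 and 5.78 times in controls. Those ratios did not overlap between the groups, and like the differences they describe the values in view when the genes were chosen.

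The 3 microfibril-associated genes differed from one another. Mfap4 encodes a fibrinogen-domain glycoprotein that binds elastin and fibrillin and is made by smooth muscle. It was measured at 164, 182 and 203 FPKM in the deficient-labelled libraries and at 78.2, 88.8 and 72.1 FPKM in controls. Every value labelled deficient was higher than every control by a wide margin. The means were 183.1 ± 19.7 FPKM in the deficient-labelled libraries and 79.7 ± 8.45 FPKM in controls (SD, n = 3 each), a difference of 1.19 in log2(FPKM + 1) (SE 0.11, 95% interval from 0.92 to 1.46). Mfap4 (chromosome 11, 61485431 to 61488900) shares 89 exon bases with Mapk7 on the opposite strand, and the sources used here do not say if reads were counted by strand. Exon bases are also shared with genes on the opposite strand by Fbn1 (2442), Ltbp2 (764), Eln (267) and Ltbp3 (182). Mapk7 stood at 8.43 ± 0.883 FPKM in the deficient-labelled libraries and 8.87 ± 0.717 FPKM in controls (SD, n = 3 each), far below Mfap4.

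Mfap2 and Mfap5 encode the 2 microfibril-associated glycoproteins MAGP-1 and MAGP-2, which bind fibrillin and growth factors of the TGF-beta family. Mfap2 stood at 26.1, 36.3 and 42.7 FPKM in the deficient-labelled libraries and at 34.1, 28.7 and 27.3 FPKM in controls. Mfap5 stood at 42.7, 50.2 and 60.4 FPKM in the deficient-labelled libraries and at 57.6, 51.2 and 50.5 FPKM in controls. Both genes had overlapping groups, with the lowest value in deficient 1 and the highest in deficient 3. Their differences were 0.19 (SE 0.18, 95% interval from -0.25 to 0.64) for Mfap2 and -0.07 (SE 0.13, 95% interval from -0.38 to 0.25) for Mfap5. Ltbp3 and Mfap4 also had their lowest value of that group in deficient 1 and their highest in deficient 3.

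Within the MFAP family, Mfap4 made up 68.2 ± 2.07% of the summed FPKM in the deficient-labelled libraries and 48.9 ± 3.4% in controls (SD, n = 3 each). The share of Mfap5 was 18.9 ± 0.701% in the deficient-labelled libraries and 32.6 ± 1.99% in controls. For Mfap2 it was 12.9 ± 1.47% in the deficient-labelled libraries and 18.4 ± 1.55% in controls. None of the 3 shares overlapped between the groups. Shares of a library add up to a whole, so a higher Mfap4 share lowers those of Mfap2 and Mfap5. The levels of Mfap2 and Mfap5 themselves overlapped. The sum of the 3 genes was between 232.9 and 306.5 FPKM in the deficient-labelled libraries and between 149.9 and 169.9 FPKM in controls.

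Among the LTBP genes, Ltbp1 had the largest difference. LTBP1 binds the TGF-beta precursor inside the cell and anchors the secreted complex to fibrillin and fibronectin. Ltbp1 (chromosome 17, 75005568 to 75392512, plus strand) stood at 25.3, 30.5 and 24.4 FPKM in the deficient-labelled libraries and at 11.1, 10.5 and 8.92 FPKM in controls. The lowest value labelled deficient was more than any control, and the 3 values of each group lay close together. The means were 26.7 ± 3.27 FPKM in the deficient-labelled libraries and 10.2 ± 1.12 FPKM in controls (SD, n = 3 each), a difference of 1.31 in log2(FPKM + 1) (SE 0.11, 95% interval from 1.04 to 1.58).

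Ltbp4 encodes the LTBP that is needed for elastic fibre assembly with fibulin-5, and it was the most abundant of the 4 in every library. Its level was 141, 145 and 117 FPKM in the deficient-labelled libraries and 177, 149 and 152 FPKM in controls. The highest value labelled deficient lay only just under the lowest control. The difference was -0.24 in log2(FPKM + 1) (SE 0.11, 95% interval from -0.52 to 0.03), and its range over the other scalings was -0.32 to -0.2.

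Ltbp3, which also carries latent TGF-beta, was at 29.5, 32.9 and 36.8 FPKM in the deficient-labelled libraries and at 31.5, 32.0 and 33.6 FPKM in controls. Its control values lay inside the range of the other group, and the difference of 0.03 (SE 0.09, 95% interval from -0.19 to 0.24) turned to -0.044 with median-of-ratios scaling. Ltbp2, the LTBP that does not bind latent TGF-beta, was the lowest of the 10 genes, at 0.703, 1.48 and 0.960 FPKM in the deficient-labelled libraries and 1.56, 1.58 and 1.58 FPKM in controls. The control values were nearly equal, while those labelled deficient spread, the second lying close to the controls. The difference was -0.35 (SE 0.14, 95% interval from -0.69 to just under 0). At 36800000 reads, the Ltbp2 values correspond to about 210 reads in the lowest library and 480 in the highest, if the length behind its FPKM is the union of its exons.

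The sum over the LTBP family did not separate the groups, with 196.9, 210.1 and 179.2 FPKM in the deficient-labelled libraries and 221.2, 192.7 and 196.5 FPKM in controls. The shares of Ltbp1, Ltbp2 and Ltbp4 did not overlap between the groups, while that of Ltbp3 did, at 14.99% to 20.5% in the deficient-labelled libraries and 14.2% to 17.1% in controls. Ltbp1 was 13.7 ± 0.815% of that sum in the deficient-labelled libraries and 4.99 ± 0.445% in controls (SD, n = 3 each), and Ltbp4 was 68.8 ± 3.24% in the deficient-labelled libraries and 78.3 ± 1.57% in controls. There were 5.05 ± 0.457 Ltbp4 FPKM for each Ltbp1 FPKM in the deficient-labelled libraries and 15.8 ± 1.45 in controls. Such ratios within a library do not depend on a factor common to all its genes, though quantile normalization can change them. The ratios describe the same values that chose the genes.

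**Figure D2:**
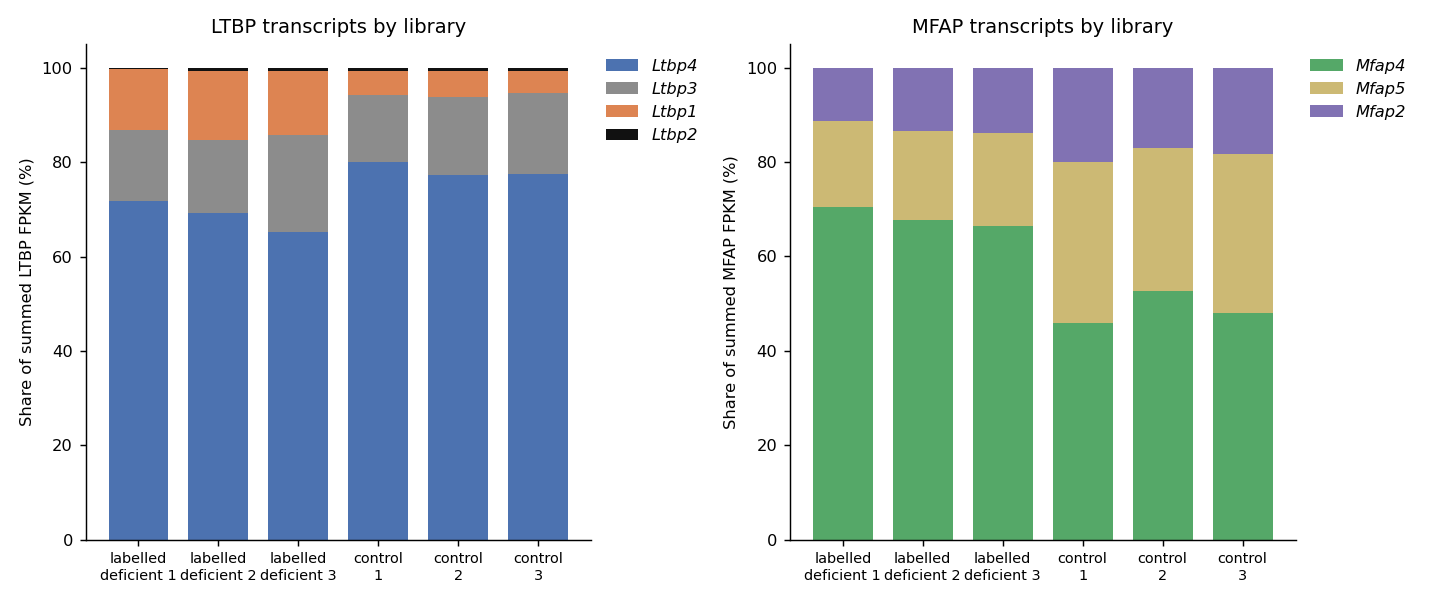
Share (%, vertical axis) of each gene in the summed FPKM of the LTBP family (left) and the MFAP family (right), 1 bar per library, with the deficient-labelled libraries left of the controls. The Ltbp1 band is between 12.9% and 14.5% in the deficient-labelled libraries and between 4.54% and 5.43% in controls, and the Mfap4 band is between 66.4% and 70.5% in the deficient-labelled libraries and between 46.0% and 52.7% in controls.

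Adamtsl2 had the largest ratio of the 10 genes. Its product belongs to the ADAMTS-like family, which resembles the ADAMTS proteases but lacks the protease domain, and in humans its mutations cause geleophysic dysplasia, a disease shared with Fbn1. Adamtsl2 (chromosome 2, 27079379 to 27108981, plus strand) stood at 11.5, 9.20 and 11.4 FPKM in the deficient-labelled libraries and at 2.09, 3.18 and 1.96 FPKM in controls. The groups were far apart, and the highest control was control 2. Means were 10.7 ± 1.32 FPKM in the deficient-labelled libraries and 2.41 ± 0.671 FPKM in controls (SD, n = 3 each), a difference of 1.79 in log2(FPKM + 1) (SE 0.16, 95% interval from 1.42 to 2.17). With a pseudocount of 0.1 the difference was 2.13. Relative to Fbn1 in the same library, Adamtsl2 was at 0.355 ± 0.0587 in the deficient-labelled libraries and 0.0818 ± 0.0175 in controls.

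**Figure D3:**
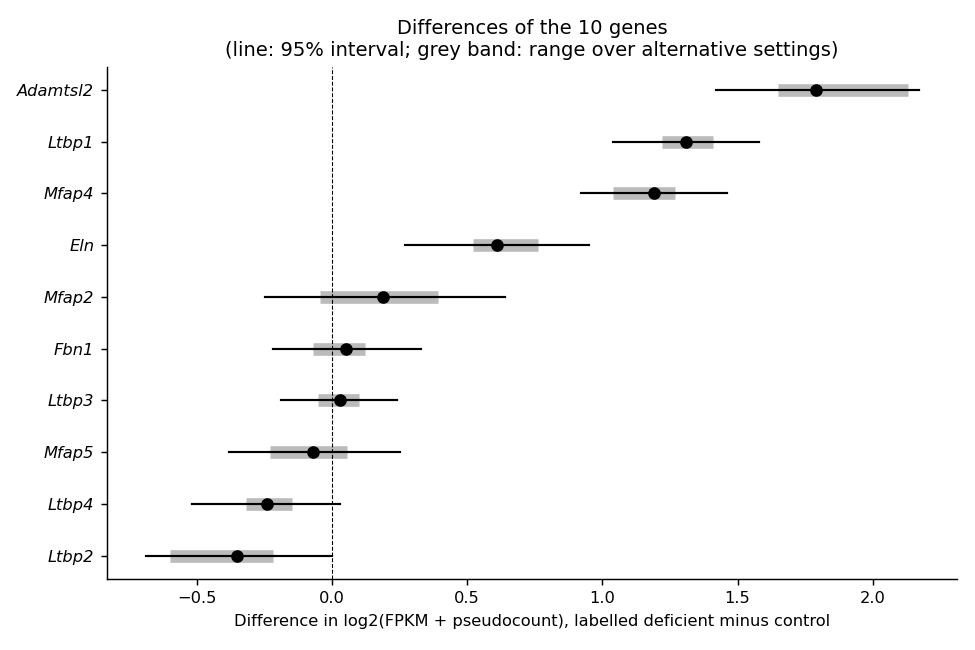
Difference in log2 level, labelled deficient minus control (horizontal axis), for each of the 10 genes, with the 95% interval of the limma fit as a line and the range over the alternative settings as a grey band. The bands of Adamtsl2 (1.65 to 2.13), Ltbp1 (1.22 to 1.41), Mfap4 (1.04 to 1.27) and Eln (0.52 to 0.76) lie above 0, those of Ltbp2 (-0.6 to -0.22) and Ltbp4 (-0.32 to -0.15) below it, and the other 4 cross it.

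The 10 genes were also put in order of their mean level per length. In the deficient-labelled libraries the order of the means was Eln, Mfap4, Ltbp4, Mfap5, Mfap2, Ltbp3, Fbn1, Ltbp1, Adamtsl2 and Ltbp2. In controls it ran from Ltbp4 and Eln through Mfap4, Mfap5, Ltbp3, Mfap2 and Fbn1 to Ltbp1, Adamtsl2 and Ltbp2. Neighbours whose values overlapped were Eln and Mfap4, Mfap2 and Ltbp3, Ltbp3 and Fbn1, and Fbn1 and Ltbp1 in the deficient-labelled libraries. In controls they were Ltbp4 and Eln, Ltbp3 and Mfap2, and Mfap2 and Fbn1. Single libraries departed from the order of their group's means: Mfap4 was above Eln in deficient 3, and Eln above Ltbp4 in control 2. Deficient 1 had Fbn1 above Ltbp3 and Ltbp3 above Mfap2. Both Mfap2 and Fbn1 were above Ltbp3 in control 1, and Fbn1 was above Mfap2 in control 2. Together the 10 genes summed to 724.8, 783.1 and 714.6 FPKM in the deficient-labelled libraries and to 584.0, 552.7 and 514.3 FPKM in controls, which is between 0.192% and 0.219% of all FPKM in the deficient-labelled libraries and between 0.136% and 0.156% in controls. Most of that sum is Eln, Mfap4 and Ltbp4.

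The genes that work with these 10 were listed from knowledge of the pathway, 75 in 5 lists, of which 69 had a mean of at least 1 FPKM. Over these 69, 1 rose and 5 fell, with a median difference of -0.1. All counts here are set against the 1.34% of genes called higher and 1.99% called lower over the whole table. The lists were drawn up with earlier results of these data known.

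Of 19 genes tested for elastic fibre assembly, 1 fell, 0 rose and 18 did not pass, and the median difference was -0.14. Among the 19, 6 had an unadjusted p under 0.05, beside 21.5% of all genes tested. The gene that fell was Efemp1, which encodes fibulin-3, a short fibulin of the elastic fibre surface. Efemp1 stood at 19.0, 18.4 and 23.7 FPKM in the deficient-labelled libraries and at 35.9, 38.2 and 38.5 FPKM in controls. The groups were well apart, and the difference was -0.86 (SE 0.10, limma adjusted p = 0.014). Efemp1 lost the call without deficient 1, control 1 or control 2, where its limma adjusted p was between 0.06 and 0.069.

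The named enzymes and adaptors of elastin assembly did not pass the test in the fit reported. Loxl1 and Efemp2 were called lower with array weights (limma adjusted p = 0.035 and 0.04). Without the third library of both groups they were called lower as well (limma adjusted p = 0.049 and 0.042). Lox, the lysyl oxidase that starts the cross-linking of elastin and collagen, was at 48.4 ± 5.65 FPKM in the deficient-labelled libraries and 42.8 ± 6.84 FPKM in controls (SD, n = 3 each), a difference of 0.18 (SE 0.14). Loxl1, the relative that renews elastic fibres, was at 53.0 ± 4.51 FPKM in the deficient-labelled libraries and 62.1 ± 5.78 FPKM in controls, a difference of -0.22 (SE 0.10). The values of both genes overlapped between the groups. Fbln5, the fibulin that brings elastin and Loxl1 to microfibrils, was at 9.82 ± 1.19 FPKM in the deficient-labelled libraries and 9.73 ± 1.49 FPKM in controls, a difference of 0.02 (SE 0.13) whose sign turned with median-of-ratios scaling (-0.049) and quantile normalization (-0.03). Efemp2, which encodes fibulin-4 and recruits lysyl oxidase, differed by -0.21 (SE 0.09), and Emilin1, a glycoprotein at the border of elastin and microfibril, by -0.26 (SE 0.13). The values of Emilin1 were lower without overlap (8.16% of all genes tested). Fbn2, the fibrillin of embryonic tissues, was at 3.22 ± 0.159 FPKM in the deficient-labelled libraries and 2.81 ± 0.372 FPKM in controls, well under Fbn1 on this per-length scale. Adamts10, a protease of the ADAMTS family that binds fibrillin-1, differed by 0.31 (SE 0.12).

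Of 10 genes tested for elastin-degrading enzymes and the elastin receptor complex, limma called 0, and 1 had an unadjusted p under 0.05, beside 21.5% of all genes tested. Their median difference was -0.07.

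In the list of TGF-beta ligands and the proteins that hold or release latent TGF-beta, 2 of 13 genes tested fell, 0 rose and 11 did not pass, with a median of -0.21. Itgb1, the beta-1 integrin chain, stood at 165, 183 and 154 FPKM in the deficient-labelled libraries and at 293, 319 and 254 FPKM in controls. Lrrc32, which encodes GARP and tethers latent TGF-beta to cell surfaces in the place of an LTBP, stood at 10.4, 9.66 and 10.9 FPKM in the deficient-labelled libraries and at 15.9, 14.1 and 14.5 FPKM in controls. Neither gene had overlapping groups. The differences were -0.78 for Itgb1 (SE 0.11, limma adjusted p = 0.021) and -0.48 for Lrrc32 (SE 0.07, limma adjusted p = 0.027). Itgb1 lost the call without deficient 1, control 1 or control 2 (limma adjusted p between 0.081 and 0.1), and Lrrc32 without any 1 library other than deficient 3 (between 0.056 and 0.11).

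The ligands themselves did not pass. Tgfb2 was by far the most abundant of the 3, at 876, 609 and 853 FPKM in the deficient-labelled libraries and 594, 651 and 954 FPKM in controls. The groups overlapped over most of their range. Tgfb1 was at 15.3 ± 0.815 FPKM in the deficient-labelled libraries and 18.8 ± 3.09 FPKM in controls, and Tgfb3 at 15.7 ± 4.12 FPKM in the deficient-labelled libraries and 11.97 ± 1.15 FPKM in controls (SD, n = 3 each). Itgav, the integrin chain that pulls TGF-beta free of its latent complex, differed by -0.27 (SE 0.14), while its partner chain Itgb8 lay under 1 FPKM in every library and was not tested.

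Of 13 TGF-beta receptor and SMAD genes tested, limma called 0, and 6 had an unadjusted p under 0.05, beside 21.5% of all genes tested. Without overlap, 3 were higher (Smad3 among them) and 4 lower (Tgfbr2 among them), beside 20.8% and 8.16% of all genes tested. Tgfbr1, the signalling receptor chain, was at 6.05 ± 0.269 FPKM in the deficient-labelled libraries and 6.17 ± 0.426 FPKM in controls (SD, n = 3 each). Its partner Tgfbr2, which binds the ligand, was at 124.1 ± 0.5 FPKM in the deficient-labelled libraries and 133.6 ± 8.91 FPKM in controls. Smad3, a transcription factor that carries the signal to the nucleus, differed by 0.28 (SE 0.09) and did not pass.

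Of the 14 TGF-beta target genes, 1 rose, 2 fell and 11 did not pass. The groups did not overlap for 10 of them, 4 higher and 6 lower, beside 20.8% higher and 8.16% lower of all genes tested. Fn1 encodes fibronectin, on which microfibrils and the LTBP1 complex are laid down, and stood at 124, 167 and 136 FPKM in the deficient-labelled libraries and 559, 590 and 583 FPKM in controls. That is 4.06 times lower, the largest difference in any of the 5 lists (-2.02, SE 0.12, limma adjusted p = 0.0022). Postn, which encodes the matrix protein periostin, was at 284, 262 and 154 FPKM in the deficient-labelled libraries and 598, 756 and 635 FPKM in controls. Its values did not overlap and its difference was -1.54 (SE 0.24, limma adjusted p = 0.028), but it lost the call with no filter (0.054) and without any 1 library other than deficient 3 (0.058 to 0.11). Ldlrad4, an inhibitor of SMAD signalling that TGF-beta induces, stood at 5.55, 5.62 and 5.66 FPKM in the deficient-labelled libraries and 3.35, 3.35 and 3.27 FPKM in controls. The values of each group were nearly equal, and the difference was 0.61 (SE 0.06, limma adjusted p = 0.005).

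Ctgf, which encodes connective tissue growth factor and is a much used target gene of the pathway, did not pass. It was at 22.8, 40.6 and 30.4 FPKM in the deficient-labelled libraries and at 55.7, 45.4 and 44.7 FPKM in controls. Its groups did not overlap, and the difference was -0.65 (SE 0.21, limma adjusted p = 0.15). With array weights the limma adjusted p of Ctgf was 0.044. Pmepa1, Skil and Smad7, target genes that restrain the pathway and are named here after their values were seen, had groups that did not overlap in the other direction and did not pass either. Their differences were 0.61 for Pmepa1 (SE 0.14), 0.28 for Skil (SE 0.09) and 0.38 for Smad7 (SE 0.12), with limma adjusted p of 0.079, 0.15 and 0.16.

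**Figure D4:**
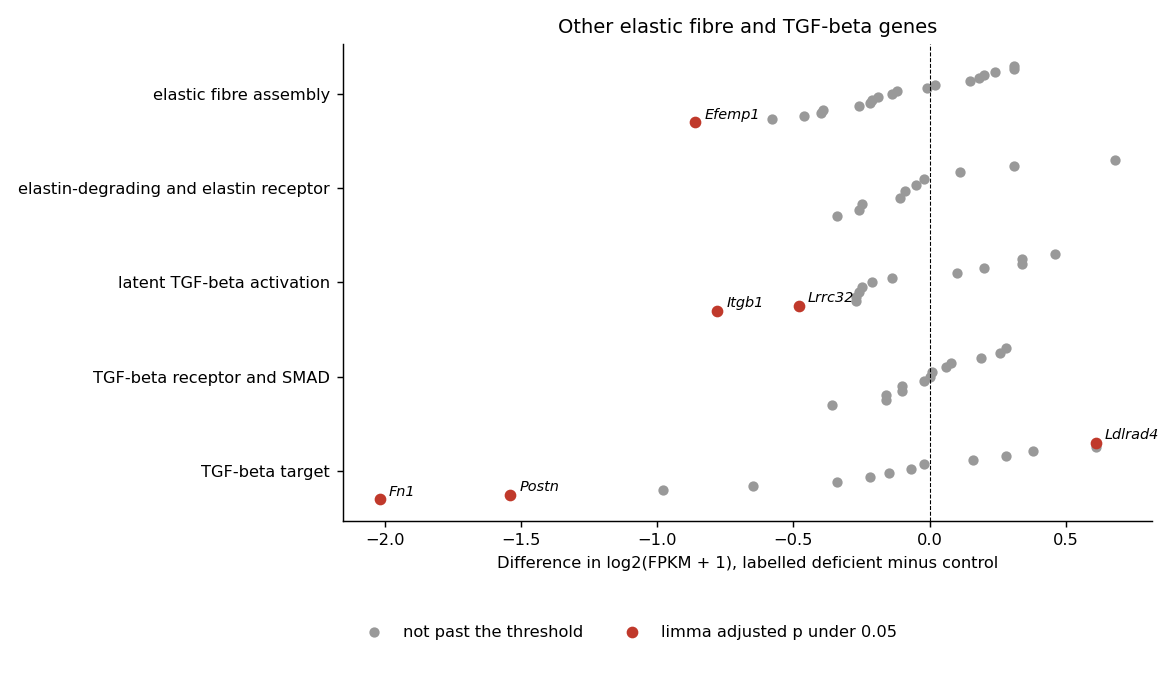
Difference in log2(FPKM + 1), labelled deficient minus control (horizontal axis), for each tested gene of the 5 lists, 1 point per gene, with genes past a limma adjusted p of 0.05 in red and named. The points lie around 0 in every list, and of the 6 genes named Ldlrad4 is the one above 0.

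Markers of the cell types in the tissue moved beside these genes. Calls among them stand beside 1.34% of all genes tested called higher and 1.99% called lower. The markers of muscle, stroma and epithelium that a uterine label implies were measured in every library. All 8 smooth muscle markers fell, and their summed level was between 3261.5 and 3845.4 FPKM in the deficient-labelled libraries and between 8069.6 and 9847.7 FPKM in controls. The 6 fibroblast and stroma markers had 0 calls with limma and 3 unadjusted p under 0.05 (21.5% of all genes tested), with sums between 3664.9 and 3721.1 FPKM in the deficient-labelled libraries and between 4166.8 and 4467.2 FPKM in controls. Most of that sum is Col1a1 and Col3a1, which also stand in the TGF-beta target list. Both and Dpt were lower without overlap (8.16% of all genes tested). Pdgfra was higher without overlap (20.8%), at 25.7 to 38.5 FPKM in the deficient-labelled libraries and 21.8 to 25.3 FPKM in controls, and Dcn and Lum overlapped. Of 6 epithelial markers 2 rose and 4 did not pass, 3 of them with overlapping groups. Those that rose were Krt19 and Cdh1, named after their values were seen. The sums of the list were between 742.2 and 977.8 FPKM in the deficient-labelled libraries and between 586.1 and 647.9 FPKM in controls.

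Sums of the endothelial and macrophage lists overlapped between the groups, at 107.9 to 152.4 and 831.9 to 922.0 FPKM in the deficient-labelled libraries and at 120.6 to 130.1 and 777.6 to 932.5 FPKM in controls. The pericyte and mesothelium sums overlapped as well, at 130.1 to 143.3 and 349.9 to 536.6 FPKM in the deficient-labelled libraries and at 135.5 to 137.3 and 332.7 to 402.7 FPKM in controls. Of the 6 pericyte markers 2 fell, beside 1.99% of all genes tested. They were Kcnj8 (-0.5, limma adjusted p = 0.014) and Cspg4 (-0.56, limma adjusted p = 0.038), and 2 did not overlap in the other direction (20.8% of all genes tested). Both genes are named after their values were seen. Rgs5, between 74.4 and 88.4 FPKM in the deficient-labelled libraries and between 72.9 and 74.2 FPKM in controls, makes up most of the pericyte sum. Decidual stroma markers summed to between 510.9 and 695.5 FPKM in the deficient-labelled libraries and between 761.0 and 1000.8 FPKM in controls. Of the 5 decidual markers tested limma called 0, and 2 had an unadjusted p under 0.05 (21.5% of all genes tested). Bmp2 and Wnt4 were higher without overlap (20.8% of all genes tested), at 1.33 and 1.49 times the control means. Wnt4 lay under 1 FPKM and was not tested. Hand2 and Prl8a2 were lower without overlap (8.16% of all genes tested), and Hoxa10 overlapped. Dcn, which is most of that sum and also stands in the fibroblast list, overlapped between the groups, while Prl8a2, the gene whose values set the sums apart, was at 0.664 to 26.5 FPKM in the deficient-labelled libraries and 60.4 to 354.6 FPKM in controls. Mast cell markers summed to between 2.98 and 5.3 FPKM in the deficient-labelled libraries and between 28.6 and 35.2 FPKM in controls. Trophoblast markers were near 0 in both groups, with sums up to 0.419 FPKM in the deficient-labelled libraries and 0.801 FPKM in controls, 4 of the 6 under 0.1 FPKM in every library and Gcm1 at 0 in all.

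Adamtsl2, Ltbp1, Mfap4 and Eln were at their higher levels in the same libraries in which all 8 smooth muscle markers and 4 of 5 tested mast cell markers fell, 2 of 6 epithelial markers rose, and the summed fibroblast and decidual levels were lower. Over all genes tested 1.99% were called lower and 1.34% higher. Single genes of the fibroblast and decidual lists did not all go the same way. In tissue of mixed cells, fewer cells of a type and less RNA per cell cannot be told apart, and the part of these markers in the results was not tested.

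**Figure D5:**
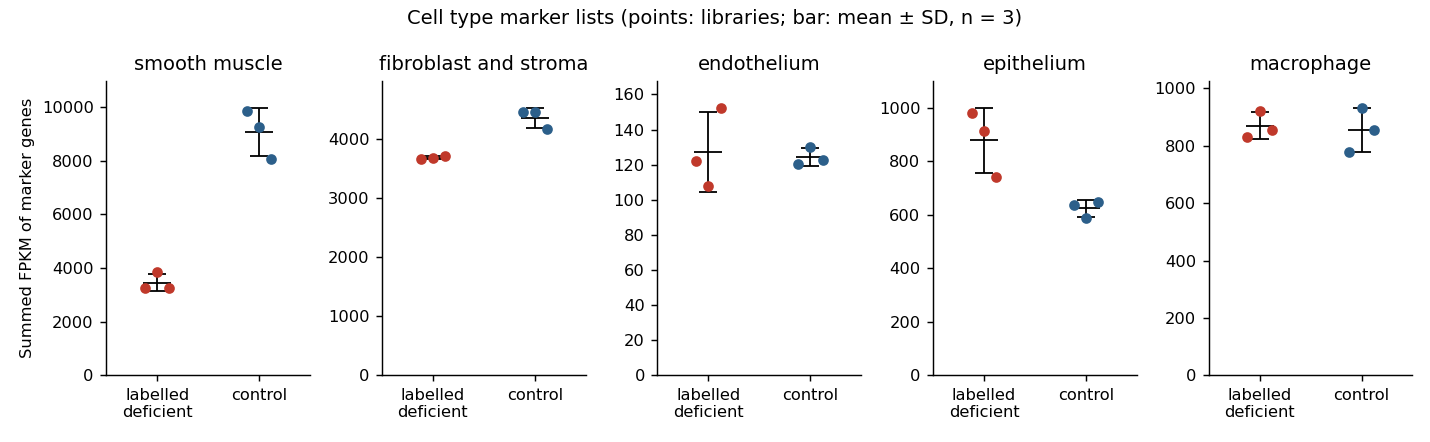
Summed FPKM (vertical axis, linear, from 0) of 5 cell type marker lists in the 3 deficient-labelled libraries (left, red) and the 3 controls (right, blue), with mean and SD. The smooth muscle sums lie between 3261.5 and 3845.4 FPKM in the deficient-labelled libraries and between 8069.6 and 9847.7 FPKM in controls, the epithelial sums are higher in the deficient-labelled libraries, and those of endothelium and macrophages overlap.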

How the data were processed

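Uterine RNA of 3 deficient-labelled and 3 control libraries was sequenced. The authors deposited FPKM values for 24964 gene symbols, 1 column per library. The submitters' processing notes name STAR 2.7.0f, cutadapt 2.7, DESeq2 1.24.0 and mm10 with no role. The counting program, annotation, strand setting and FPKM formula were not given in the sources used here. Each of the 6 columns carries the name of its sample.

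The test was limma 3.58.1 in R 4.3.3 (eBayes with an intensity trend, no covariate) on log2(FPKM + 1). It covered the 12500 genes whose mean was at least 1 FPKM, with Benjamini-Hochberg adjustment over all of them and a threshold of 0.05. The code was tested on simulated data. What 1 read is worth was estimated from low values of short genes with 1 annotated transcript. It depends on gene lengths that the table lacks, so no count model was run. Because FPKM is relative, abundant transcripts in a library lower the values of the others.

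The members and lists were chosen with earlier results of these data known. All 10 members and Pgr are named. In each list every gene past the threshold is named, up to 6, and so are partners chosen whatever their values, of which 1 is not reported here. Gene positions and overlaps come from GENCODE M21. Alternatives were other pseudocounts, filters, scalings and weights, a replicate block, and leaving out each library or the third of both groups.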

Additional observations from a re-analysis of the deposited data

How the results depend on the processing

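Adamtsl2, Ltbp1 and Mfap4 were called higher in the fit reported and in all 17 alternatives, and the count of members called was 3 or 4 throughout, the fourth being Eln. Every alternative refits values that were in view when the members were chosen, so these calls are a description and support nothing. The count of genes called, 417, was 1770 with array weights, 1275 without the third library of both groups, and between 99 and 525 with 1 library left out. Same-numbered libraries did not deviate together (correlations of -0.136, 0.0789 and -0.132, beside -0.132 to 0.2 for the other combinations). Deviations within groups of 3 cannot exclude a pairing, and the fit reported treats the libraries as unpaired. With the number as a replicate block, 143 genes were called in place of 417 and 1 in place of 2 in the latent TGF-beta list, and Lrrc32 and Postn were lost. The count for elastic fibre assembly was 5 with array weights, 6 without the third libraries, and between 0 and 2 with 1 library left out. That of the latent TGF-beta list was 4 without the third libraries and between 0 and 3 with 1 left out. Of TGF-beta target genes, 7 were called with array weights, 5 without the third libraries and between 2 and 4 with 1 left out. The receptor list had 2 and 1 calls with array weights and without the third libraries, and the elastin-degrading list 1 without the third libraries. The cause of these shifts was not tested.

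Signs turned for values near 0. The Pgr difference, 0.05, was 0.36 without the third library of both groups (limma adjusted p = 0.088), 0.21 with array weights, -0.019 with median-of-ratios scaling, -0.0054 with quantile normalization, and between -0.078 and 0.23 with 1 library left out (-0.015 without deficient 1, -0.078 without deficient 2, -0.068 without control 2). With median-of-ratios scaling, Fbn1, Ltbp3 and Fbln5 differed by -0.017, -0.044 and -0.049, and with quantile normalization Fbln5 by -0.03. Array weights gave -0.036 for Fbn1, -0.023 for Ltbp3, -0.043 for Mfap2 and -0.076 for Fbln5. Leaving out the third libraries gave -0.044, -0.026, -0.021 and -0.006 for the same 4 genes. With 1 library left out, Fbn1 lay between -0.072 and 0.12, Ltbp3 between -0.052 and 0.1, Mfap5 between -0.19 and 0.054, Fbln5 between -0.1 and 0.11, Tgfb2 between -0.035 and 0.31 and Tgfbr1 between -0.053 and 0.026. Tgfbr1 was 0.018 after rescaling to an equal sum. Ltbp2 was not tested with a minimum mean of 5 FPKM. Depth of single libraries is unknown, and the number of libraries limits the precision.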
